A study of Homo sapiens with 4 samples.

Results

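KIT, the platelet-derived growth factor (PDGF) receptors and the ligands of these receptors were described in human cells treated with a control siRNA or an siRNA against KLF11. The family held 8 of the 57905 gene identifiers in the deposited table: the receptors KIT, PDGFRA and PDGFRB and the ligands KITLG, PDGFA, PDGFB, PDGFC and PDGFD. The genes were chosen by symbol, with the difference between the siRNA groups in these same libraries already known. Their values are therefore a description of the contrast, and no p-value is given for any of the 8.

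Polyadenylated RNA was sequenced from 2 libraries of control siRNA cells and 2 libraries of KLF11 siRNA cells, all collected 48 hours after transfection. The cells are labelled MG63, an osteosarcoma line, and no further allele, transgene or agent is given for either group. Levels are FPKM, sequenced fragments scaled by gene length and by library size, and are given as replicates 1 and 2. The labels do not tell whether the replicates were separate cultures, so the p-values reflect library-to-library variation that may be technical and no more.

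KIT and the PDGF receptors are class III receptor tyrosine kinases, which pair up when a dimeric ligand binds and then recruit adaptors and kinases to their phosphorylated tails. KITLG, also called stem cell factor, is the ligand of KIT and is made as a membrane-bound or a shed form. PDGFA and PDGFC act mainly through PDGFRA, PDGFD mainly through PDGFRB, and PDGFB through either receptor. KIT is known from mast cells, melanocytes, germ cells and interstitial cells of the gut, and together with CXCR4 it marks definitive endoderm in culture. PDGF receptors are typical of fibroblasts, mural cells and bone-forming cells.

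The siRNA target was lower in the treated group. KLF11, a zinc finger transcription factor that binds GC-rich DNA, was at 12.3 and 12.4 FPKM under control siRNA against 5.49 and 6.74 FPKM under KLF11 siRNA (log2 change -0.92, SE 0.139, adjusted p = 0.00951, limma). That call needed each control library, as the adjusted p was 0.116 or 0.113 with 1 of them left out. FPKM summed to between 577849 and 604498 over the libraries, and their read depth is not given in the sources used here.

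The label was set against marker genes. Of 12 osteoblast and mesenchymal markers, 6 had a mean of at least 1 FPKM, among them SPARC at 637 to 772 FPKM and ALPL at 79.3 to 106 FPKM. RUNX2, the master factor of the bone lineage, was at 0.03 and 0.02 FPKM under control siRNA against 0.60 and 0.65 FPKM under KLF11 siRNA, and no library had more than 1.40 FPKM of COL3A1, BGLAP, POSTN, LUM or DCN. All 12 pluripotency and endoderm markers passed the same filter, and their summed level was 6242 and 6230 FPKM under control siRNA against 3928 and 5180 FPKM under KLF11 siRNA. Most of that sum was CER1, an endoderm gene, at 4430 and 4406 FPKM under control siRNA against 958 and 2574 FPKM under KLF11 siRNA. POU5F1, a pluripotency factor, was at 177 to 1364 FPKM. The markers thus go against the label, whether the cells are MG63 is not settled by these data, and they are called here only by their label.

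KIT was the most abundant of the 8 genes in control libraries and was 4.32-fold lower with KLF11 siRNA. KIT (ENSG00000157404) was at 47.5 and 48.9 FPKM under control siRNA against 9.76 and 12.6 FPKM under KLF11 siRNA. The groups did not overlap, and the gap between them was far wider than the gap within either pair. On the log2(FPKM + 1) scale the change was -2.03 (SE 0.137), and 1.38% of the 15320 genes tested changed by this much or more in that direction.

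The PDGF receptors gave other values: PDGFRA differed little between the groups and PDGFRB was higher with KLF11 siRNA. PDGFRA (ENSG00000134853) was at 11.5 and 12.3 FPKM under control siRNA against 8.41 and 10.9 FPKM under KLF11 siRNA, a log2 change of -0.29 (SE 0.153). The groups did not overlap, but KLF11 siRNA replicate 2 lay closer to the controls than to its own replicate. PDGFRB (ENSG00000113721) was at 0.61 and 0.32 FPKM under control siRNA against 4.71 and 3.80 FPKM under KLF11 siRNA, a log2 change of 1.84 (SE 0.211). It was thus close to the lower end of detection in control libraries and passed the filter of 1 FPKM only through the KLF11 siRNA libraries. PDGFRA was at 18.9 and 38.6 times the level of PDGFRB in control libraries and at 1.79 and 2.87 times its level in KLF11 siRNA libraries.

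All 5 ligand genes were higher in both KLF11 siRNA libraries than in either control library, and KITLG, PDGFA and PDGFB were higher by the widest margins. KITLG (ENSG00000049130) was at 6.57 and 8.07 FPKM under control siRNA against 34.8 and 22.5 FPKM under KLF11 siRNA, a 3.91-fold difference in means (log2 change 1.81, SE 0.227). Replicate 1 of the KLF11 siRNA pair was the higher one. Because gene-level FPKM adds up all transcripts, the membrane-bound and shed forms of KITLG cannot be told apart.

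PDGFA (ENSG00000197461), which pairs as a homodimer or with PDGFB, was at 8.83 and 7.31 FPKM under control siRNA against 44.6 and 31.7 FPKM under KLF11 siRNA. The difference in means was 4.73-fold (log2 change 2.10, SE 0.191), with the spread again wider in the KLF11 siRNA pair. PDGFB (ENSG00000100311), the ligand that binds either PDGF receptor, was at 5.85 and 6.44 FPKM under control siRNA against 35.1 and 36.5 FPKM under KLF11 siRNA. Its difference was the widest of the ligands, at 5.83-fold (log2 change 2.37, SE 0.106), and its SE on the log2(FPKM + 1) scale was the smallest of the ligands.

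The ligands that carry a CUB domain, which must be cut off outside the cell before they bind, differed less. PDGFC (ENSG00000145431) was listed at 6.13 FPKM in either control library, against 12.02 and 9.04 FPKM under KLF11 siRNA (1.72-fold, log2 change 0.68, SE 0.165). PDGFD (ENSG00000170962) was at 2.17 and 1.91 FPKM under control siRNA against 3.17 and 3.84 FPKM under KLF11 siRNA (1.72-fold, log2 change 0.56, SE 0.176). The groups did not overlap for either gene.

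**Figure D1:**
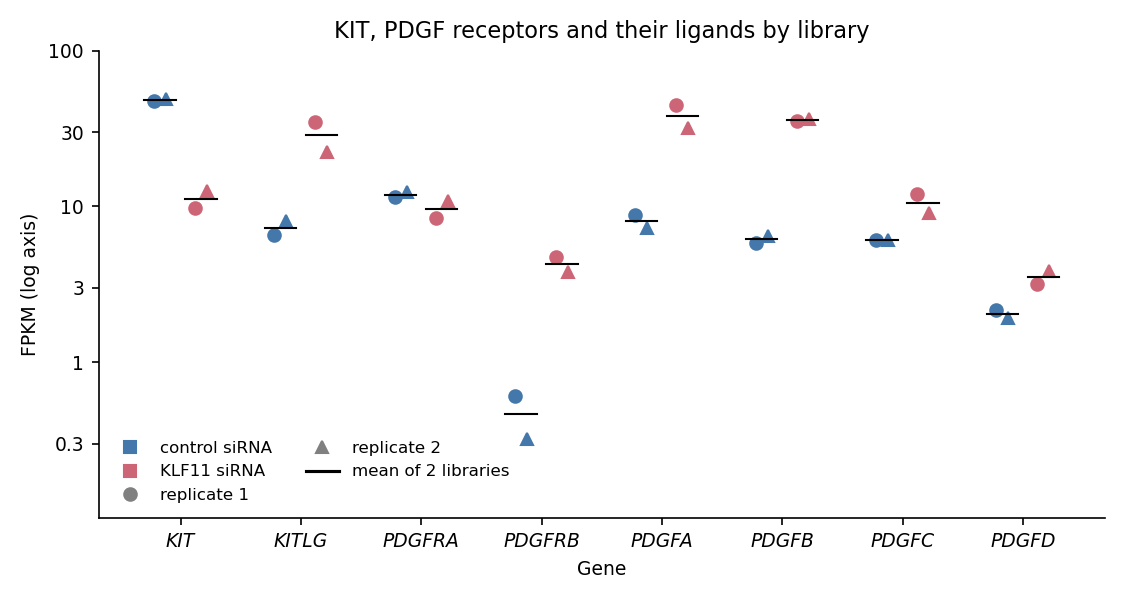
FPKM (log axis) of the 8 genes in each library, with control siRNA in blue, KLF11 siRNA in red, replicate 1 as circles, replicate 2 as triangles and the mean of 2 libraries as a line. KIT lies at 47.5 and 48.9 FPKM under control siRNA against 9.76 and 12.6 FPKM under KLF11 siRNA, while the 5 ligand genes and PDGFRB lie higher with KLF11 siRNA.

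The order of the genes by level differed between the groups. In control libraries KIT stood first at a mean of 48.2 ± 1.04 FPKM (SD, n = 2), followed by PDGFRA at 11.9 ± 0.594, PDGFA at 8.07 ± 1.07 and KITLG at 7.32 ± 1.06 FPKM. PDGFB at 6.15 ± 0.417 FPKM, PDGFC, PDGFD and PDGFRB came after them, and the values of PDGFA and KITLG overlapped, as did those of PDGFB and PDGFC. In KLF11 siRNA libraries PDGFA stood first at 38.1 ± 9.14 FPKM, then PDGFB at 35.8 ± 0.955 and KITLG at 28.6 ± 8.71 FPKM. KIT followed at 11.2 ± 1.97 FPKM and overlapped PDGFC at 10.5 ± 2.11 FPKM, which in turn overlapped PDGFRA at 9.66 ± 1.77 FPKM. PDGFA and PDGFB overlapped there, as did PDGFRB and PDGFD.

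Ligand and receptor levels were set against each other, both per gene length. KITLG was at 0.138 and 0.165 times the level of KIT in control libraries and at 3.56 and 1.79 times its level in KLF11 siRNA libraries, so the order of the pair was opposite in the groups. PDGFA was at 0.768 and 0.592 times the level of PDGFRA in control and at 5.30 and 2.90 times its level in KLF11 siRNA libraries. The 4 PDGF genes together came to 23.0 and 21.8 FPKM under control siRNA against 94.9 and 81.1 FPKM under KLF11 siRNA. PDGFC made up 26.7% and 28.1% of that sum in control and 12.7% and 11.2% in KLF11 siRNA libraries, and PDGFB 25.5% and 29.6% against 37.0% and 45.0%.

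In the limma fit over all 15320 genes, 35.2% of genes had an adjusted p under 0.05, 13.5% as higher and 21.7% as lower with KLF11 siRNA. The same fit called 6 of the 8 genes: KIT lower, and KITLG, PDGFRB, PDGFA, PDGFB and PDGFC higher. Control and KLF11 siRNA values were separate for all 8 genes, and for 73.4% of genes tested. Since the family was proposed with this contrast known, nothing is read from these counts, and PDGFRB had to differ to pass the filter.

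The median log2 change of all genes tested was -0.11, and median-of-ratios scaling, which centres the ratios between libraries, moved it to 0.0045. That scaling gave 2757 genes higher and 2605 lower, against 2071 and 3329 without it. The direction of each of the 8 genes was the same under FPKM, TPM, median-of-ratios and quantile scaling. A fit with 1 library left out takes its spread only from the group that stays complete. Where a KLF11 siRNA library is left out, that is the control pair. With either control library left out, 0 of the 8 genes and 0 of all genes were called, as only the KLF11 siRNA pair then gives a spread, although limma gave an unadjusted p under 0.05 for 4461 or 4793 genes, 5 of the 8 among them in each case. Without KLF11 siRNA replicate 1 the fit called 5 of the 8, PDGFC being lost at a log2 change of 0.49. Without replicate 2 it called 7, with PDGFRA added at -0.46.

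**Figure D2:**
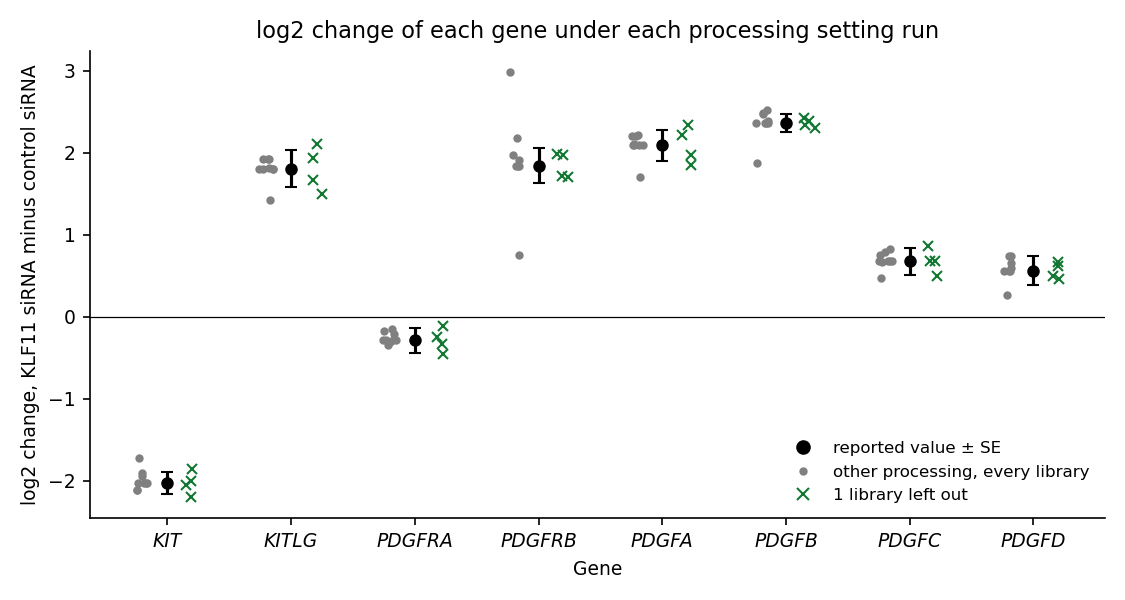
Log2 change of each gene, KLF11 siRNA minus control siRNA, with the reported value and its SE in black, other processing of all 4 libraries in grey and fits with 1 library left out as green crosses. No value crosses 0, with KIT between -2.19 and -1.73 and PDGFRB ranging most widely, from 0.76 with a pseudocount of 5 to 2.99 with a pseudocount of 0.1.

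The KLF11 siRNA libraries differed from each other in how far they lay from the controls. Replicate 1 was the farther one for 6 of the 8 genes, PDGFB and PDGFD being the exceptions, and for 79.1% of all genes called. KLF11 itself was lower in replicate 1. The difference between these replicates has no label, and its part in the results was not tested.

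The region before the start of some of these genes is shown because KLF11 belongs to a family of factors that bind GC boxes and CACCC elements. RefSeq windows (GRCh38.p14) were matched for 6 of the 8 genes, giving 10 windows of 250 bases before a start. A GC box (GGGCGG on either strand) was present in 9 of the 10 windows, against 42.6% of 35116 windows of the same length. CACCC (either strand) was present in 4 of 10, against 54.7% of windows. Each match was counted by its first base, also where matches overlapped, and a CACCC overlapped a GC box in 1 window of PDGFA. Of the 10 windows, 4 were of PDGFA alone. GC content was 76.4% in the KIT window, 69.2% in those of KITLG and PDGFD, 68.8% to 81.6% in those of PDGFA, 58.4% in that of PDGFRB and 46.8% and 64% in those of PDGFRA, against a median of 58% in all windows. The share with a GC box was not compared at matched GC content. GC boxes were found in windows of KIT, whose level was lower, and in those of KITLG, PDGFRB, PDGFA and PDGFD, whose levels were higher, and a match is only a run of letters.

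The windows of KIT, PDGFRA, PDGFRB and PDGFA are printed 5′ to 3′ on the gene's strand, with GC boxes in capitals. They end at the first base of an annotated exon (GENCODE 29) where one lies inside. KIT spans chr4:54657707-54657917 on the plus strand, PDGFRA chr4:54233710-54233959 on the plus strand, PDGFRB chr5:150155861-150156095 on the minus strand and PDGFA chr7:519847-520096 on the minus strand.
KIT: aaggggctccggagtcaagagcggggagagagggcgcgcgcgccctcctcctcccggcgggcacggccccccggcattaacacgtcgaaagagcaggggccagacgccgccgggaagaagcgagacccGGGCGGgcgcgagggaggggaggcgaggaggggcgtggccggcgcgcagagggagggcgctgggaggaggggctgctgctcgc
PDGFRA: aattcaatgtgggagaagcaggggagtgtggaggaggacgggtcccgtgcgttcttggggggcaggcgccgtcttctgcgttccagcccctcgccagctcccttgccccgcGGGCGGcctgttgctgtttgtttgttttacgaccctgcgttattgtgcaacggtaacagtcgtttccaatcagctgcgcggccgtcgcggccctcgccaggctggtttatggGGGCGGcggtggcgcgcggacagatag
PDGFRB: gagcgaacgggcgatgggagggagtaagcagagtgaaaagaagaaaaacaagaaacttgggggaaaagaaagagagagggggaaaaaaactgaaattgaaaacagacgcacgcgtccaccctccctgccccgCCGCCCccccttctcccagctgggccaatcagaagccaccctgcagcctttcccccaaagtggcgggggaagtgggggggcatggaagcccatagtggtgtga
PDGFA: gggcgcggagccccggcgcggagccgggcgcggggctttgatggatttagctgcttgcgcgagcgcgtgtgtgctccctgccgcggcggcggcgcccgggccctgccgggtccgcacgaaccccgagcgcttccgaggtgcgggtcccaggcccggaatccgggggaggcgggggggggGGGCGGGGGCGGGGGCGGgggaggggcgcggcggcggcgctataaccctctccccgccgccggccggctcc

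The single GC box of KIT begins 122 bases before the start, and that of PDGFRB 118 bases before it. The PDGFA window shown holds 3 GC boxes in a row, beginning 71, 65 and 59 bases before the start, and another PDGFA window holds 5.

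KIT and PDGFRA are neighbours on chromosome 4, with KDR, a VEGF receptor, on the other side of KIT. Of 15 listed genes around them, 13 were tested, 2 rose and 3 fell, with a median log2 change of -0.05. These calls were 38.5% of the tested neighbours, beside 35.2% of all genes tested. The genes next to the pair did not pass. KDR was at 7.98 and 7.54 FPKM under control siRNA against 10.9 and 5.99 FPKM under KLF11 siRNA (adjusted p = 0.878, limma), its KLF11 siRNA libraries lying on either side of the controls. CHIC2 was at 7.38 and 9.72 FPKM under control siRNA against 9.33 and 7.12 FPKM under KLF11 siRNA (adjusted p = 0.859), and GSX2, a homeobox gene, was listed at 0 in every library.

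The genes of this region that passed lay farther off. NMU, which encodes the peptide neuromedin U, fell from 195 and 199 FPKM to 28.6 and 71.9 FPKM (log2 change -2.09, adjusted p = 0.0175). USP46, a deubiquitinase, and EXOC1, an exocyst subunit, fell by 0.45 and 0.44 on the log2 scale. TMEM165, a Golgi membrane protein, and CEP135, a centriole protein, rose by 0.64 and 0.57. Without KLF11 siRNA replicate 1, NMU and TMEM165 alone of these 5 passed, and SRD5A3, a steroid reductase gene, was added at a log2 change of -0.53. With median-of-ratios scaling NMU, TMEM165 and CEP135 passed.

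**Figure D3:**
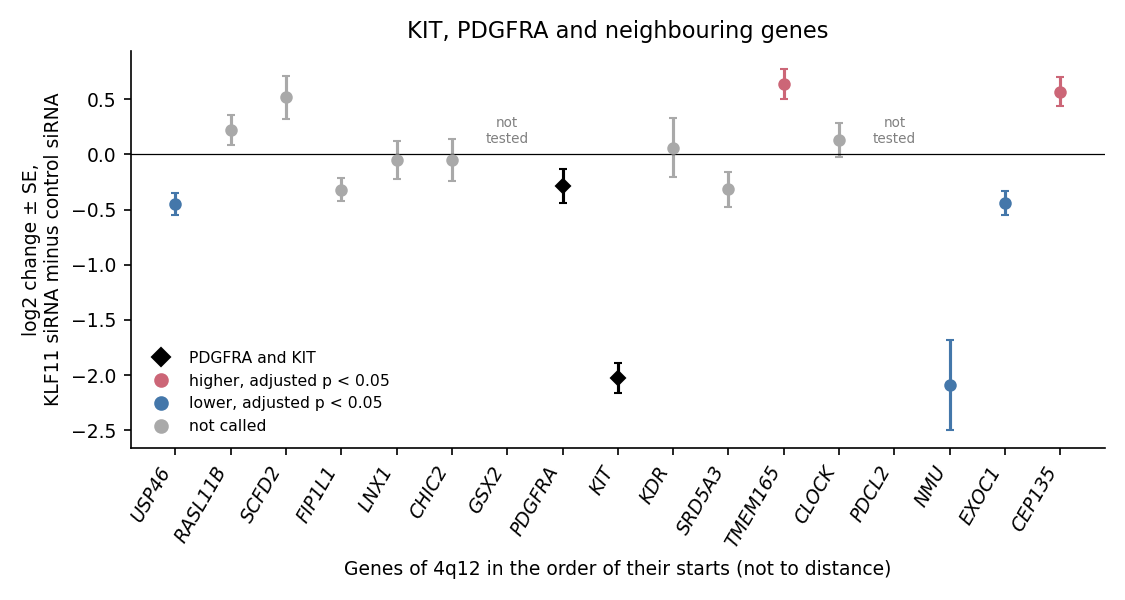
Log2 change with SE, KLF11 siRNA minus control siRNA, for KIT, PDGFRA (black diamonds) and 15 listed neighbours in the order of their starts on chromosome 4, with genes that rose in red, fell in blue and did not pass in grey. KIT at -2.03 lies apart from PDGFRA at -0.29 and KDR at 0.06 on either side of it, and NMU at -2.09 is the other low value.

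Enzymes that release the ligands, and co-receptors, moved in both directions. Of 12 genes, all tested, 5 rose and 3 fell, with a median log2 change of 0.23. Called genes made up 66.7% of the list, beside 35.2% of all genes tested, and the difference in share was not tested. This share counts PLAT and MMP9, which had to differ to pass the filter. PLAT, the tissue plasminogen activator that frees active PDGFC, rose from 0.86 and 0.27 FPKM to 7.82 and 7.02 FPKM (log2 change 2.45, adjusted p = 0.00426, limma), passing the filter through the KLF11 siRNA libraries. PLAU, the urokinase, which acts on PDGFD, rose from 11.1 and 9.86 FPKM to 24.4 and 27.0 FPKM (adjusted p = 0.00418). ST14, the membrane protease matriptase, which also cuts PDGFD, fell from 11.4 and 9.96 FPKM to 2.11 and 2.38 FPKM (adjusted p = 0.00324). The proteases of PDGFD thus went opposite ways.

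PCSK5, a proprotein convertase of the type that matures PDGFA and PDGFB, rose 2.30-fold (adjusted p = 0.0158), and PCSK7 of the same family rose 1.59-fold (adjusted p = 0.018). FURIN, the best known of these convertases, did not pass, with 35.8 and 33.0 FPKM under control siRNA against 26.7 and 28.3 FPKM under KLF11 siRNA (adjusted p = 0.057). It was called lower with TPM scaling (adjusted p = 0.0423). MMP9, which can shed KITLG, rose from 0.45 and 0.35 FPKM to 1.41 and 2.36 FPKM (adjusted p = 0.03), again passing the filter only through the KLF11 siRNA libraries, and was not called without replicate 2 of them. ADAM17, a sheddase of KIT and KITLG, fell from 16.0 and 16.7 FPKM to 9.99 and 12.2 FPKM (adjusted p = 0.0319). NRP1, neuropilin, a co-receptor that binds PDGF and VEGF ligands, fell from 14.0 and 15.5 FPKM to 2.61 and 6.97 FPKM (adjusted p = 0.0298).

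The nearest relatives of the receptors were scarcely present. CSF1R and FLT3, the other class III receptors, had at most 0.21 and 0.06 FPKM in any library. Of 6 genes in the list, 3 were tested and 1 fell, which is 33.3% beside 35.2% of all genes tested. This was IL34, a ligand of CSF1R, which went from 5.39 and 4.38 FPKM to 1.29 and 2.41 FPKM (log2 change -1.07, adjusted p = 0.0265, limma). PDGFRL, a receptor-like gene without a kinase, was at 1.97 and 2.12 FPKM under control siRNA against 1.63 and 1.37 FPKM under KLF11 siRNA (adjusted p = 0.269).

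Adaptors and kinases that bind the activated receptors were all expressed. Of 28 genes, all tested, 6 rose, 5 fell and 17 did not pass, with a median log2 change of -0.15, near the -0.11 of all genes tested. The called share was 39.3%, beside 35.2% of all genes tested. STAT3, a transcription factor activated by receptor and cytokine signals, rose from 14.5 and 14.1 FPKM to 38.1 and 36.4 FPKM (log2 change 1.32, adjusted p = 0.00246, limma). STAT5A and STAT5B, which KIT is known to activate, did not pass (adjusted p = 0.0862 and 0.447), although STAT5A was lower without a variance trend (adjusted p = 0.0297). Reads of this near-identical pair may have been split unevenly.

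GAB2, a docking protein known to act downstream of KIT, fell from 20.5 and 19.9 FPKM to 4.72 and 6.59 FPKM (adjusted p = 0.00438). PLCG2, a phospholipase, fell from 9.75 and 8.69 FPKM to 2.52 and 1.97 FPKM (adjusted p = 0.00436). Its relative PLCG1 measured 95.4 and 84.9 FPKM under control siRNA against 57.3 and 74.8 FPKM under KLF11 siRNA (adjusted p = 0.0666). PLCG1 was called lower with TPM scaling (adjusted p = 0.0467). SRC fell by 0.68 on the log2 scale and GAB1 by 0.50. The other SRC family kinases of the list were LYN, which rose 2.39-fold, and YES1 and FYN, which rose by 0.49 and 0.58 on the log2 scale. PTPN11, a phosphatase that promotes RAS signals, and PIK3R1, a regulatory subunit of PI3 kinase, completed the 6 that rose.

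Of 16 genes of the RAS and AKT core, all tested, 0 rose and 5 fell, with a median log2 change of -0.28. The share called was 31.2%, below the 35.2% of all genes tested. In limma 1 was higher and 7 lower at an unadjusted p under 0.05, which is 50% of the list beside 48% of all genes. PDPK1, a kinase that activates AKT, rose by 0.42 (log2) under median-of-ratios scaling, at an adjusted p of 0.0358, and also passed with quantile normalization (adjusted p = 0.0326). MAPK3, which encodes ERK1, fell from 44.7 and 39.1 FPKM to 12.3 and 19.6 FPKM (log2 change -1.37, adjusted p = 0.0113, limma). MAP2K1, MAP2K2 and AKT1 fell by 0.46 to 0.53 on the log2 scale. AKT1 did not pass with median-of-ratios scaling (adjusted p = 0.0737). Without KLF11 siRNA replicate 1 the list held 2 calls, and 2 without a variance trend.

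Genes listed as receptor attenuators, together with related adaptors, went both ways. Of 17 genes, 16 were tested, 3 rose and 6 fell, with a median log2 change of -0.15. SOCS1 and SOCS6 encode suppressors of cytokine signalling that bind KIT. SOCS1 rose from 2.94 and 2.18 FPKM to 10.7 and 8.11 FPKM (log2 change 1.55, adjusted p = 0.00665, limma), and SOCS6 rose by 0.48 on the log2 scale (adjusted p = 0.0415). SH2B3, which encodes the adaptor LNK, rose from 3.88 and 4.06 FPKM to 7.84 and 8.66 FPKM (adjusted p = 0.00953). PTPN6, the phosphatase SHP-1, fell from 14.4 and 14.0 FPKM to 5.15 and 6.60 FPKM (adjusted p = 0.00655), and LRIG1, a membrane protein that lowers receptor levels, fell 2.09-fold (adjusted p = 0.0113). The ubiquitin ligases CBL and CBLB, which tag KIT and the PDGF receptors, fell by 0.50 and 0.68 on the log2 scale. SH2B1 and SH2B2, adaptors in the list as relatives of SH2B3, also fell. Without KLF11 siRNA replicate 1, 5 of these 9 genes passed: SOCS1, SH2B3, PTPN6, LRIG1 and CBLB. The share called, with SH2B1 and SH2B2 counted, was 56.2%, beside 35.2% of all genes tested.

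**Figure D4:**
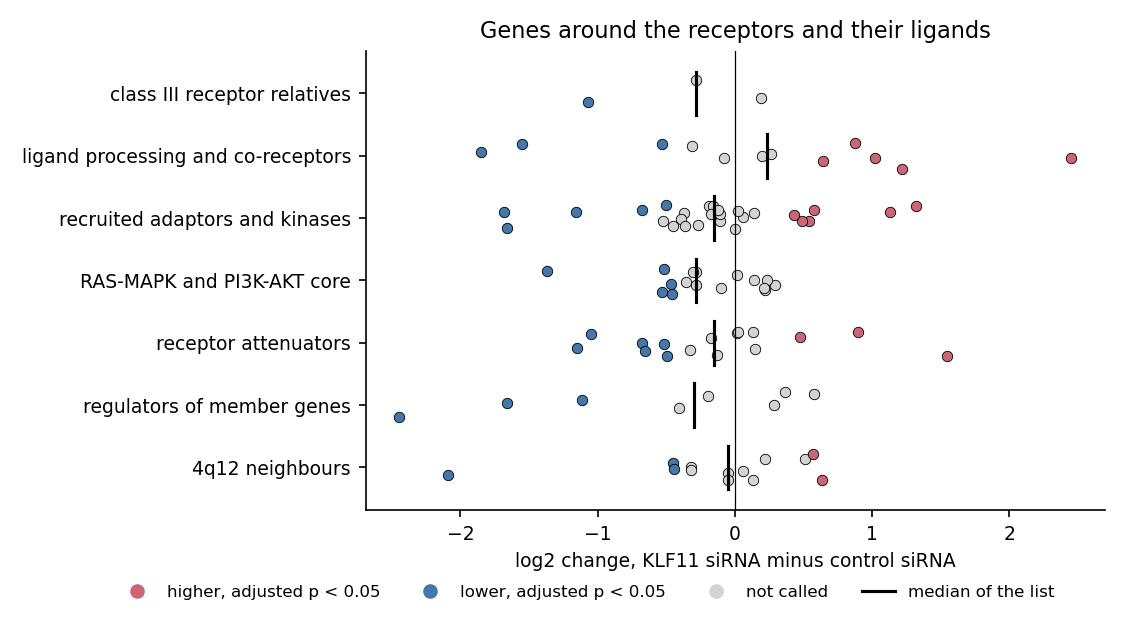
Log2 change, KLF11 siRNA minus control siRNA, of each tested gene in 7 lists around the receptors, with genes that rose in red, fell in blue and did not pass in grey, and the list's median as a line. The median runs from -0.30 for regulators of member genes to 0.23 for ligand processing and co-receptors, and the RAS and AKT core holds no gene that rose, although PDPK1 rose with median-of-ratios scaling and quantile normalization.

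Over the 7 lists, 96 of 109 genes were tested, 16 rose and 26 fell, and the median log2 change was -0.13 beside -0.11 for all genes tested. The share that passed was 43.8%, beside 35.2% of all genes tested, and the difference in share was not tested. It counts PLAT, MMP9 and MYB, which had to differ to pass the filter.

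Of 15 transcription factors known to regulate genes of this family, 8 were tested. Of these 8, 0 rose and 3 fell, with 1 higher and 4 lower in limma at an unadjusted p under 0.05. The 3 calls were 37.5% of the tested genes, beside 35.2% of all genes tested. GATA4, a factor of endoderm and heart, fell from 108 and 104 FPKM to 12.2 and 28.3 FPKM (log2 change -2.45, adjusted p = 0.00913, limma). GATA6, which accompanies PDGFRA in primitive endoderm, fell from 89.9 and 90.2 FPKM to 18.2 and 42.1 FPKM (adjusted p = 0.0239), and MYB, a regulator of KIT in blood progenitors, from 2.21 and 1.98 FPKM to 0.32 and 0.55 FPKM (adjusted p = 0.0156). MYB passed the filter only through the control libraries, so it had to differ. MITF, the melanocyte and mast cell factor upstream of KIT, was at 0.41 to 0.66 FPKM, TAL1 had at most 0.39 FPKM and GATA1 at most 0.03 FPKM. Other genes below the filter were separate between the groups. WT1 was at 0.39 and 0.29 FPKM under control siRNA against 2.02 and 1.13 FPKM under KLF11 siRNA. LMO2 was at 0.22 and 0.16 against 1.39 and 0.81 FPKM, and GATA2 at 0.33 and 0.15 against 0.74 and 0.90 FPKM. TFAP2A and MITF went the other way, TFAP2A at 0.79 and 0.85 against 0.23 and 0.54 FPKM. SRF, serum response factor, rose with median-of-ratios scaling and with quantile normalization (adjusted p = 0.026 and 0.0324). Without KLF11 siRNA replicate 2, 5 genes of the list passed, with ETV1 higher and SP1 lower added.

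Markers of cell types that carry KIT were looked for in the same libraries. Of 6 mast cell markers, 4 were listed at 0 in every library, and the 6 together came to at most 0.15 FPKM in any library. The melanocyte genes DCT, TYRP1, TYR and MLANA each had at most 0.49 FPKM. SOX10 fell from 7.38 and 6.53 FPKM to 0.65 and 0.89 FPKM (adjusted p = 0.00324, limma), passing the filter only through the control libraries. PMEL was at 3.92 and 2.15 FPKM under control siRNA against 2.29 and 4.92 FPKM under KLF11 siRNA, so its groups overlapped (adjusted p = 0.747). The 6 melanocyte markers came to 11.5 and 9.23 FPKM under control siRNA against 3.50 and 6.07 FPKM under KLF11 siRNA, and their part in the level of KIT was not tested.

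Of the 12 pluripotency and endoderm markers, 5 rose and 3 fell, beside 13.5% higher and 21.7% lower over all genes tested. SOX17 fell from 133 and 131 FPKM to 19.2 and 47.9 FPKM (adjusted p = 0.017, limma) and FOXA2 from 47.6 and 44.1 FPKM to 4.65 and 12.8 FPKM (adjusted p = 0.0125). CXCR4 was at 66.3 and 69.8 FPKM under control siRNA against 4.25 and 30.4 FPKM under KLF11 siRNA and did not pass (adjusted p = 0.0673), nor did CER1 (adjusted p = 0.0543). EOMES, an early endoderm factor, rose from 220 and 222 FPKM to 267 and 277 FPKM (adjusted p = 0.0372). The pluripotency genes POU5F1, NANOG, SOX2 and DPPA4 rose too, POU5F1 from 186 and 177 FPKM to 1364 and 1068 FPKM (adjusted p = 0.00145), while LIN28A fell by 0.36 on the log2 scale. For SOX17, FOXA2, CXCR4 and CER1, KLF11 siRNA replicate 1 was the lower one, as for KIT, and the replicates lay farther apart than those of KIT. Replicate 1 was the farther one from the controls for 79.1% of all genes called. In bulk RNA fewer cells of a type and less RNA per cell cannot be told apart, and the part of these genes' cells in the level of KIT was not tested.

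Markers of cells that carry PDGF receptors or make PDGFB were given the same look. Of 7 mural cell markers, 3 were tested, and their list summed to 184 and 163 FPKM under control siRNA against 229 and 153 FPKM under KLF11 siRNA, so the groups overlapped. MCAM rose from 11.1 and 10.1 FPKM to 27.4 and 31.2 FPKM (adjusted p = 0.00335, limma), NOTCH3 fell by 0.52 on the log2 scale, and RGS5 lay on either side of the controls. CSPG4, ABCC9, KCNJ8 and DES had at most 1.27 FPKM. The 8 endothelial and platelet markers came to 17.1 and 16.7 FPKM under control siRNA against 2.39 and 6.45 FPKM under KLF11 siRNA. VWF and ITGA2B made up most of that sum and fell. CDH5, TIE1 and PF4 were at no more than 0.68, 0.61 and 0.27 FPKM, each higher in both KLF11 siRNA libraries than in either control library. CLDN5 went the other way, at 0.67 and 0.98 FPKM under control siRNA against 0.09 and 0.12 FPKM under KLF11 siRNA. GP9 had at most 0.09 FPKM, and PPBP was listed at 0. The part of such cells in the level of PDGFB was not tested. VIM rose from 144 and 131 FPKM to 808 and 800 FPKM (adjusted p = 0.00072) and THY1 from 9.95 and 7.64 FPKM to 65.3 and 68.3 FPKM (adjusted p = 0.00138). Of the other osteoblast and mesenchymal markers tested, COL1A1 fell from 23.3 and 22.3 FPKM to 11.9 and 15.8 FPKM (adjusted p = 0.0234). COL1A2, ALPL and SPARC did not pass, although SPARC rose with median-of-ratios scaling (adjusted p = 0.0471). The part of these cells' markers in the levels of PDGFRB and the ligands was not tested.

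The genes most like KIT and PDGFB in pattern were found by the distance between log2(FPKM + 1) profiles over the 4 libraries, each centred on its mean. Nearest to KIT were ARHGAP42, a GTPase-activating protein, at a distance of 0.0715, then LHFPL2, RPRM, MAL2 and PDE10A at up to 0.0954. ARHGAP42 was at 54.0 and 55.9 FPKM under control siRNA against 11.04 and 15.2 FPKM under KLF11 siRNA. Nearest to PDGFB, whose rise was the largest of the family on the log2(FPKM + 1) scale although PDGFRB rose more in fold, were SAMD4A at 0.119, ADAMTS16, AC131094.1, NRK and SLFN12 at up to 0.17. SAMD4A was at 1.66 and 1.71 FPKM under control siRNA against 11.5 and 12.6 FPKM under KLF11 siRNA. With 4 libraries these distances reflect little beyond the difference between the groups.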

How the data were processed

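Per the submitters' processing notes, reads were processed with Trim Galore 0.5.0 and RSEM 1.3.1 on hg19 (GRCh37). The authors deposited FPKM values with 2 decimals, 1 column per library. The aligner, annotation, strand setting and filters were not given in the sources used here. RSEM shares reads among matching transcripts, so genes with near-identical copies, such as STAT5A and STAT5B, are uncertain. In GENCODE 29, exons of PDGFD overlap DDI1, listed at 0 in every library, and those of KITLG and PDGFRA overlap AC024941.2 and AC058822.1, not analysed here. Promoter windows and gene order came from RefSeq GRCh38.p14, another build than the files', and serve only for sequence and neighbours.

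Columns were matched to samples by name, leaving 0 unmatched. Replicates were distinct libraries, equal to 2 decimals for at most 0.548% of tested genes. The 15320 genes whose FPKM averaged 1 or more were fitted on log2(FPKM + 1) with limma 3.58.1 (R 4.3.3, eBayes with a trend). The groups were compared without a block, p-values were adjusted by Benjamini-Hochberg over all these genes, and the threshold was 0.05. The added 1 makes changes of low genes look smaller. Folds are ratios of mean FPKM.

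The members and lists were chosen with earlier results of these data known. Named genes were the 8 members, KLF11, every called gene of a pathway list with 5 or fewer calls and otherwise the 4 with the smallest p, and the 5 genes nearest to KIT and to PDGFB. Others were named after their values were seen, including further called genes, uncalled relatives and single markers, and values of some list genes are not reported here. Alternatives were pseudocounts of 0.1 and 5, no filter, a filter of 5 FPKM, TPM, median-of-ratios and quantile scaling, no variance trend, the replicate number as a block, and each library left out. Figures were drawn with matplotlib 3.10.9.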

Additional observations from a re-analysis of the deposited data

How the results depend on the processing

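Each of the 8 genes kept its direction under every alternative in which it was tested, PDGFRB and PDGFD being untested with the filter of 5 FPKM. With no filter, 34232 genes were tested and fewer passed: 887 higher and 1251 lower, with 0 calls among class III receptor relatives, the RAS and AKT core, regulators of member genes and neighbours of KIT, 3 in ligand processing, 6 among adaptors and 4 among attenuators. The filter of 5 FPKM left 5 calls in ligand processing, where it tested fewer genes. Without a variance trend the RAS and AKT core held 2 calls, and with median-of-ratios scaling the neighbours held 3. The replicate number as a block, which the labels tie to no culture or day, gave 5 calls among attenuators and 2 among neighbours, and 4351 over all genes against 5400. Deviations of same-numbered libraries had a correlation of -0.07 across genes, which are not independent replicates. The cause of these differences was not tested.

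With 1 library left out, the log2 change of KLF11 ran from -1.04 to -0.79, with adjusted p of 0.116 and 0.113 without a control library. The number of genes higher ran from 0 to 2291 and of genes lower from 0 to 3813. Calls ran from 0 to 7 of the 8 members, from 0 to 1 of class III receptor relatives, from 0 to 7 in ligand processing, from 0 to 11 of adaptors, from 0 to 5 of the RAS and AKT core, from 0 to 9 of attenuators, from 0 to 5 of regulators and from 0 to 5 of neighbours. Each 0 came from leaving out a control library. Of 334 refitted values of 26 pathway genes picked by the naming rule, 0 reversed and 88 lost the call, 58 of them in fits with 1 library left out. With every library, the log2 change of KLF11 kept its call at adjusted p from 0.00724 to 0.0442. PDGFC lost its call with no filter, and PDGFD gained one with median-of-ratios scaling, quantile normalization and no variance trend. Genes near 1 FPKM, such as PDGFRB and PLAT in control libraries, have levels whose precision cannot be given without counts.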
